A study of Ovis aries with 6 samples.

Results

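Natriuretic peptides and nitric oxide both signal through cyclic GMP (cGMP), and the genes described here are those of the natriuretic peptides, their receptors, the soluble cyclase that senses nitric oxide and the cGMP-dependent protein kinases. The group was drawn up by name as NPPA, NPPB, NPPC, NPR1, NPR2, NPR3, GUCY1A3, GUCY1B3, PRKG1 and PRKG2, and it was chosen by the read counts of NPR3, which were lower in lambs. Of these 10 names, 8 were found in the table of 24390 genes, and NPPB and NPPC were not analysed here. Libraries came from perirenal adipose tissue, which surrounds the kidney, of 3 lambs and 3 fetuses of pure-bred Merino sheep, all labelled wild type, untreated and kept on full maintenance diets, with 1 animal behind each library. The lambs stayed with their mothers until weaning, and the labels put their age at 89 days, at 80 days after birth and at 12 weeks. The fetuses were taken 132 days after conception, where term is 150 days. Lamb titles include the letters VEH, which the sources used here do not explain. The comparison addresses how the transcripts of this depot differ before and after birth, a time when perirenal fat of sheep is known to turn from brown to white.

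As background, atrial and B-type natriuretic peptides are hormones of the heart, and C-type natriuretic peptide is made by endothelium, cartilage and other tissues. NPR1 and NPR2 are cell surface receptors whose inner part is a guanylyl cyclase, so that binding of a peptide makes cGMP. NPR3 lacks that cyclase; it takes up and removes the peptides and can couple to inhibitory G proteins. In human adipocytes cGMP activates the kinase PRKG1 and, through it, lipolysis, and in mouse and human brown adipocytes natriuretic peptides induce the thermogenic gene UCP1. The balance of NPR1 to NPR3 in fat is known to set how strongly adipocytes respond to these peptides in mice and humans.

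The lamb libraries held 15907128 to 17263780 counts and the fetal libraries 17535892 to 19150428. Levels are given as CPM, read counts relative to the size of the library after TMM scaling, and fold changes as log2 differences, lamb minus fetal, ± SE. Adipocyte markers summed to 27120.2 to 37670 CPM in lambs and 13245 to 16571 CPM in fetuses, with 5 of 7 higher by the test and 0 lower. ADIPOQ and FABP4 together made up most of each adipocyte sum. Brown adipocyte markers summed to 499 to 637 CPM in lambs and 1281 to 2360.1 CPM in fetuses, with 2 of 4 lower and 0 higher. UCP1, which made up most of each sum, was at -1.78 ± 0.27 and DIO2 at -6.94 ± 0.31. CIDEA (-0.34 ± 0.26, edgeR adjusted p = 0.311) and PPARGC1A (-1.07 ± 0.39, adjusted p = 0.0583) did not pass. Cardiac and skeletal muscle markers summed to 6.97 to 10.5 CPM in lambs and 19.5 to 106 CPM in fetuses (1 of 2 tested lower, MYL7 at 0 counts). Endothelial markers summed to 1481 to 1581 CPM in lambs and 1445 to 1823 CPM in fetuses, where 1 of 6 was higher and 2 were lower. Smooth muscle and pericyte markers summed to 532 to 1660.4 CPM in lambs and 564 to 896 CPM in fetuses (2 of 9 higher, 1 lower), and the highest sum was that of lamb library 2. Macrophage markers summed to 1116 to 1363 CPM in lambs and 115 to 214 CPM in fetuses (6 of 7 higher, 0 lower). MRC1 alone had 1144, 1016 and 819 CPM in the lamb libraries and 61.9, 41.9 and 69.1 CPM in the fetal libraries, and so made up most of each lamb sum. Urothelial markers summed to at most 0.692 CPM in lambs and to 53.7 to 187 CPM in fetuses, with 8 of 8 lower. Kidney markers summed to at most 6.10 CPM in any library, with AQP2 and SLC34A1 at 0 counts. Adrenal markers summed to 40.3 to 53.5 CPM in lambs and 32.9 to 49.9 CPM in fetuses (1 of 4 tested lower, 0 higher). Fibroblast and preadipocyte markers summed to 4028 to 5379 CPM in lambs and 3456 to 7487 CPM in fetuses (2 of 8 higher, 1 lower). Mesothelial markers summed to 3.60 to 14.6 CPM in lambs and 3.97 to 9.45 CPM in fetuses (1 of 2 tested lower, 0 higher). The part of these cell types in the differences below was not tested, and in whole tissue fewer cells of a type and less RNA per cell cannot be told apart.

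Of the 8 genes found, 7 passed the filter on low counts. NPR3 was lower in lambs, which is the value the group was picked for and is described without a test. Of the 6 other genes tested, NPR1 was higher in lambs, PRKG1 and PRKG2 were lower, and NPR2, GUCY1A3 and GUCY1B3 did not pass (edgeR quasi-likelihood test, adjusted p below 0.05 over 13624 genes). Over all genes tested, 44.7% passed, 22.0% higher and 22.7% lower in lambs, so that 3 of 6 is close to the share of all genes. Besides NPR3, the stages did not overlap for 4 of the 6 genes, 2 of them higher and 2 lower in lambs, against 57.7% of all genes tested (28.2% higher and 29.5% lower), which with 6 genes is again close to the share of all genes.

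**Figure D1:**
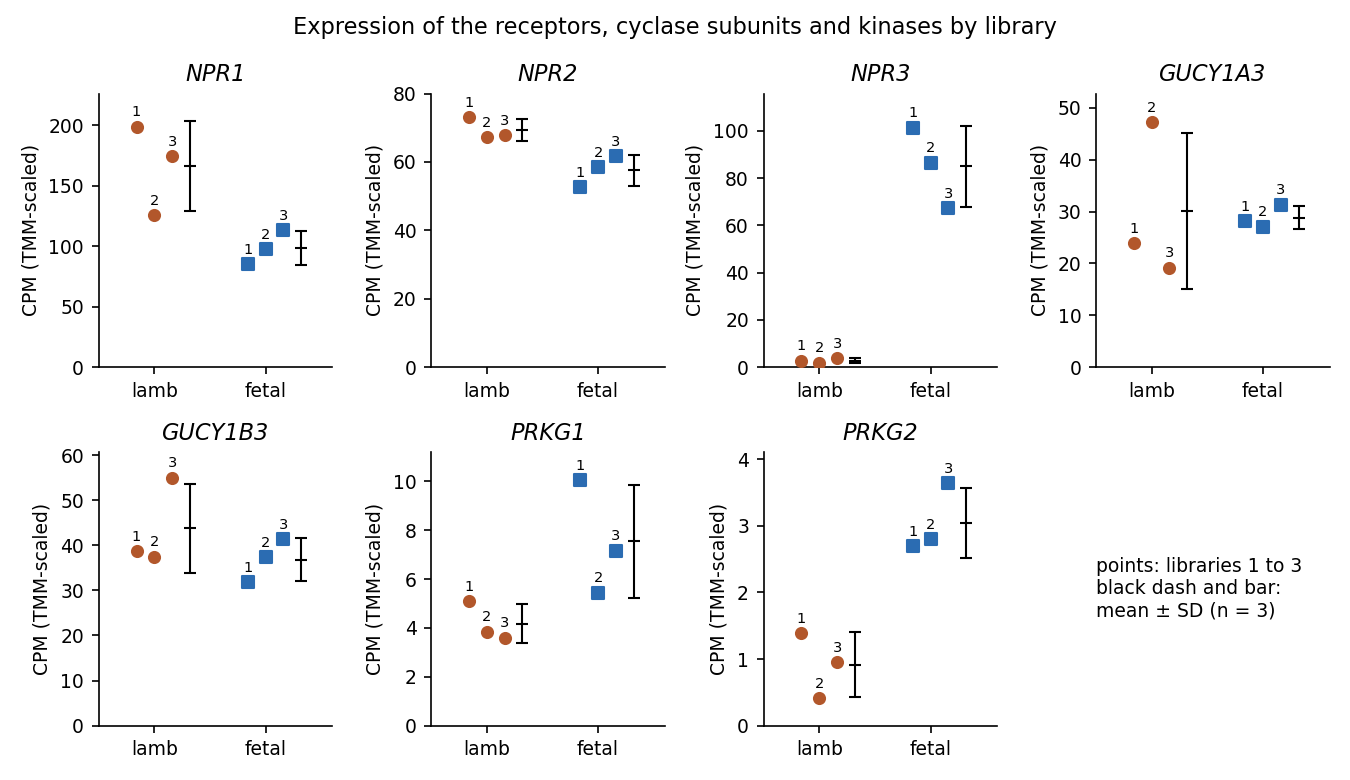
Expression in CPM (linear axes, from 0) of the 7 genes with enough counts, with lamb libraries as circles and fetal libraries as squares, numbered as in the labels; dashes and bars are mean ± SD (n = 3 per stage). NPR3 lay at 1.82 to 3.70 CPM in lambs and 67.2 to 101 CPM in fetuses, and GUCY1A3 of lamb library 2 stood above the other 5 libraries.

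Among the ligands, NPPA, the gene of atrial natriuretic peptide, was not detected. It had 0 counts in all 3 lamb and all 3 fetal libraries (ENSOARG00000018229, chromosome 12, 39969236 to 39971270 on Oar v3.1). With 3 counts as the upper limit for a gene without counts, its level could reach 0.148 to 0.156 CPM in lambs and 0.179 to 0.221 CPM in fetuses, for counting error only. The authors' deposited RPKM values, which are scaled by gene length and library size, were also 0 for NPPA.

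NPR3, the clearance receptor (ENSOARG00000012147, chromosome 16, 40816907 to 40889990), had 2.67, 1.82 and 3.70 CPM in the lamb libraries and 101, 86.6 and 67.2 CPM in the fetal libraries. Those values rest on 54, 35 and 74 counts in lambs and on 1696, 1177 and 1126 counts in fetuses. The lowest fetal library was far above the highest lamb library, and the libraries of each stage lay close to one another in comparison. NPR3 averaged 2.73 ± 0.943 CPM in lambs and 85.1 ± 17.1 CPM in fetuses (SD, n = 3 each). The log2 difference was -4.96 ± 0.28, a 31.1-fold lower level in lambs, and the authors' deposited table gives a signed linear fold of -30.7, in which a negative sign means lower in lambs. Among all genes tested, 77 (0.565%) had a log2 difference of this size or lower. On leaving out 1 library the difference lay between -5.24 and -4.73.

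NPR1, the guanylyl cyclase receptor of atrial and B-type natriuretic peptides (ENSOARG00000000858, chromosome 1, 102690912 to 102703164), had 199, 125 and 174 CPM in the lamb libraries and 85.2, 97.3 and 113 CPM in the fetal libraries. All 3 lamb values were above all 3 fetal values, with lamb library 2 nearest to the fetuses. NPR1 averaged 166 ± 37.3 CPM in lambs and 98.5 ± 14.0 CPM in fetuses (SD, n = 3 each), a log2 difference of 0.75 ± 0.19 and a 1.69-fold higher level in lambs (edgeR adjusted p = 0.0161). NPR1 was on the edge of the threshold when a fetal library was left out, with adjusted p = 0.0582 without fetal library 1 and 0.0513 without fetal library 2, against a range of 0.00116 to 0.0582 over all alternatives.

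NPR2, the guanylyl cyclase receptor of C-type natriuretic peptide (ENSOARG00000011762, chromosome 2, 52423842 to 52445175), had 73.1, 67.3 and 67.8 CPM in the lamb libraries and 52.5, 58.5 and 61.6 CPM in the fetal libraries. The stages did not overlap, but they lay close together. NPR2 averaged 69.4 ± 3.22 CPM in lambs and 57.6 ± 4.62 CPM in fetuses (SD, n = 3 each), and the log2 difference of 0.27 ± 0.11 did not pass (edgeR adjusted p = 0.0808). It passed with scaling by library totals alone, at 0.74 (adjusted p = 0.00558). In the annotation of the table NPR2 overlaps TMEM8B and SPAG8, and the sources used here do not say whether counting used the strand, so reads of these genes may be shared.

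The ratio of NPR1 to NPR3 reads was higher in every lamb library than in any fetal library. A ratio of 2 genes within a library does not depend on library scaling, and these ratios contain the NPR3 difference, so they are descriptions without a test. There were 74.4, 69.0 and 47.1 counts of NPR1 for each count of NPR3 in the lamb libraries, against 0.840, 1.12 and 1.68 in the fetal libraries. NPR1 reads thus outnumbered NPR3 reads in every lamb library, while the 2 receptors had similar read numbers in the fetuses. There were 27.4, 37.0 and 18.3 counts of NPR2 for each count of NPR3 in lambs and 0.518, 0.675 and 0.917 in fetuses. The mean log2 ratio of NPR3 to NPR1 was -5.96 ± 0.35 in lambs and -0.22 ± 0.50 in fetuses (SD, n = 3 each), which is a 53.4-fold shift. Between the cyclase receptors the ratio of NPR1 to NPR2 was 2.72, 1.86 and 2.57 in lambs and 1.62, 1.66 and 1.83 in fetuses, without overlap between the stages.

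**Figure D2:**
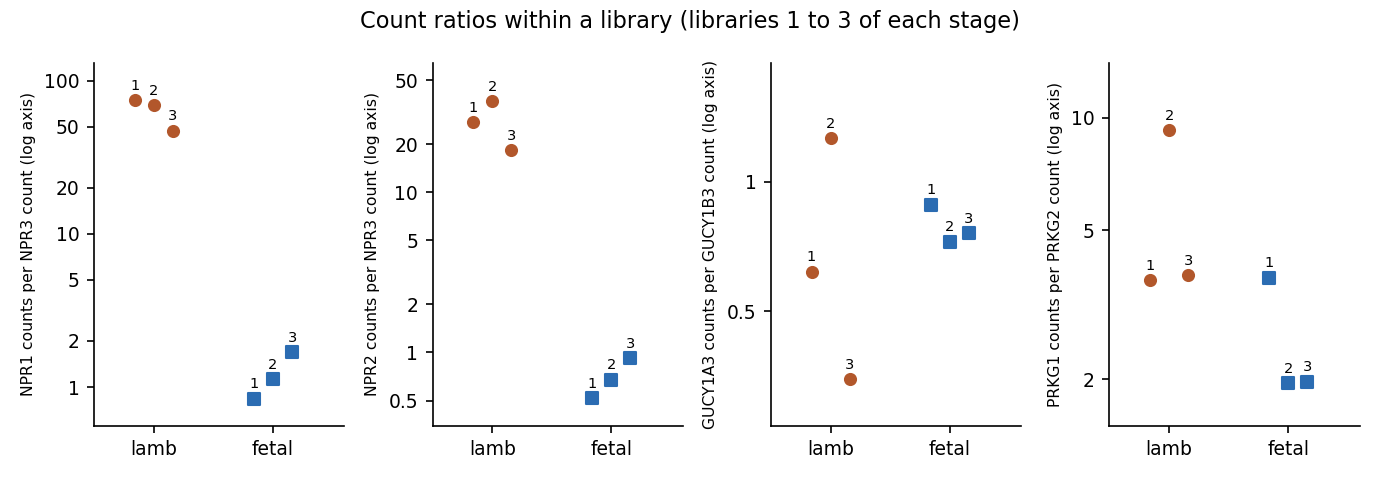
Ratios of counts within each library on log axes, lamb libraries as circles and fetal libraries as squares, numbered as in the labels. NPR1 counts per NPR3 count lay between 47.1 and 74.4 in lambs and between 0.840 and 1.68 in fetuses, whereas the ratios of the 2 cyclase subunits and of the 2 kinases overlapped between the stages.

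Per length, the order of the genes differed between the stages in the places of NPR3 and PRKG1. By the authors' deposited RPKM means, NPR3 stood at 2.73 in lambs and 45.8 in fetuses, NPR1 at 49.7 in lambs and 22.1 in fetuses, and NPR2 at 9.10 in lambs and 5.45 in fetuses. NPR3 thereby made up 4.44% of the summed RPKM of the 3 receptors in lambs and 62.4% in fetuses, and NPR1 made up 80.8% in lambs and 30.2% in fetuses. On this scale NPR3 was the most abundant of all 8 genes in fetuses. In lambs NPR1 was highest, followed by GUCY1B3 (19.4 RPKM), GUCY1A3 (17.0), PRKG1 (13.5), NPR2, NPR3 and PRKG2 (1.41). In the lamb libraries GUCY1A3 ranged from 7.94 to 33.4 RPKM, which spans the values of GUCY1B3, PRKG1 and NPR2, so its place among these genes is not settled. The places of NPR3, GUCY1A3, PRKG1 and PRKG2 rest on RPKM values that did not keep a fixed relation to their counts, as given below for each. The shares of the 3 receptors contain the NPR3 values and carry the same limit. In fetuses NPR1 was followed by PRKG1 (12.1 RPKM), GUCY1B3 (11.4), GUCY1A3 (9.47), NPR2 and PRKG2 (1.84); the spread over fetal libraries was not used here, since RPKM of only 1 fetal library could be matched to its sample.

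GUCY1A3 and GUCY1B3 encode the alpha and beta subunits of soluble guanylyl cyclase, the nitric oxide receptor, which works as a heterodimer. They are neighbours on chromosome 17, GUCY1B3 at 43174199 to 43208686 (ENSOARG00000007989) and GUCY1A3 at 43258162 to 43319709 (ENSOARG00000008232), with 49475 bases and no listed gene between them. GUCY1B3 had 38.7, 37.5 and 55.0 CPM in the lamb libraries and 31.8, 37.3 and 41.3 CPM in the fetal libraries. The stages overlapped, and the log2 difference of 0.25 ± 0.18 did not pass (edgeR adjusted p = 0.291); with scaling by library totals alone it was 0.71 and passed (adjusted p = 0.0174).

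GUCY1A3 had 23.9, 47.2 and 19.1 CPM in the lamb libraries and 28.1, 27.1 and 31.3 CPM in the fetal libraries. Lamb library 2 was above every fetal library and the other 2 lamb libraries were below every fetal library. The log2 difference was 0.06 ± 0.31 (edgeR adjusted p = 0.885), and without lamb library 2 it was -0.42 (adjusted p = 0.0620), the smallest p over all alternatives, where the range was 0.0620 to 0.984. The 2 subunits did not vary together over the lambs. The ratio of GUCY1A3 to GUCY1B3 counts was 0.618, 1.26 and 0.348 in lambs and 0.883, 0.726 and 0.759 in fetuses, and the mean log2 ratio did not differ beyond its spread (-0.63 ± 0.93 in lambs, -0.35 ± 0.15 in fetuses; two-sided exact permutation test, p = 0.7, where 3 against 3 can reach 0.1).

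Markers of contractile smooth muscle stood apart in the same lamb library as GUCY1A3. DES, the intermediate filament protein of muscle, had 27.1, 331 and 28.3 CPM in the lamb libraries and 100.4, 66.2 and 24.5 CPM in the fetal libraries. MYH11, the smooth muscle myosin heavy chain, had 85.7, 589 and 113 CPM in lambs and 363, 248 and 158 CPM in fetuses. CNN1, an actin-binding protein of smooth muscle, had 16.5, 149.6 and 18.6 CPM in lambs and 34.0, 23.2 and 11.0 CPM in fetuses. Of the 9 markers found, DES, MYH11, CNN1, TAGLN, LMOD1 and PDGFRB were highest of the 6 libraries in lamb library 2. The other 3 were not. NOTCH3, a receptor of mural cells, was lowest in it, at 51.8 CPM, against 57.3 and 55.7 CPM in lamb libraries 1 and 3 and 80.3 to 94.7 CPM in the fetal libraries. CSPG4, a pericyte proteoglycan, had 53.5, 31.9 and 52.7 CPM in lambs and 25.5, 28.8 and 38.9 CPM in fetuses. RGS5, a pericyte gene, was lowest in lamb library 2, at 33.2 CPM, against 76.3 and 74.9 CPM in lamb libraries 1 and 3 and 46.8 to 51.9 CPM in the fetal libraries. The part of smooth muscle in the GUCY1A3 value was not tested.

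**Figure D3:**
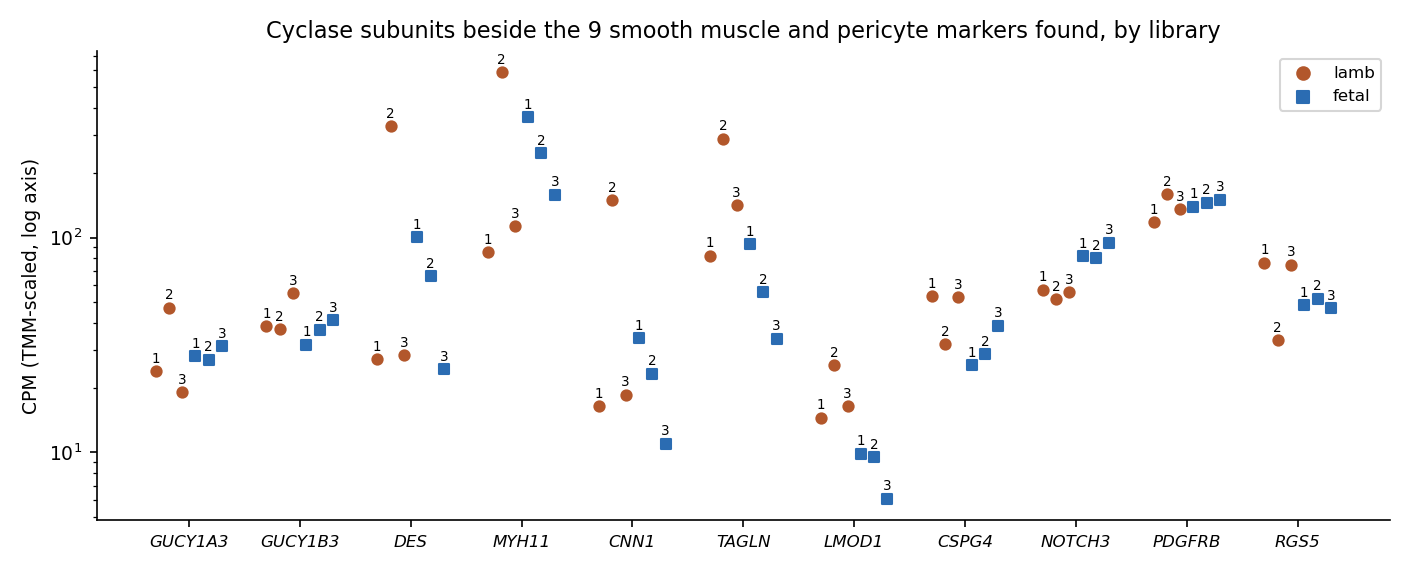
CPM on a log axis in each library, lamb as circles and fetal as squares, for the cyclase subunits and for the 9 of 10 smooth muscle and pericyte markers found in the table. GUCY1A3, DES, MYH11, CNN1, TAGLN, LMOD1 and PDGFRB were highest in lamb library 2, whereas RGS5 and NOTCH3 were lowest there, CSPG4 was lower there than in the other 2 lamb libraries and GUCY1B3 was not set apart.

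PRKG1, the cGMP-dependent kinase of smooth muscle, platelets and fat (ENSOARG00000013625, chromosome 22, 6721273 to 7267215), had 5.09, 3.84 and 3.60 CPM in the lamb libraries and 10.04, 5.44 and 7.16 CPM in the fetal libraries. All lamb values were below all fetal values, with a small gap between lamb library 1 and fetal library 2. PRKG1 averaged 4.18 ± 0.800 CPM in lambs and 7.55 ± 2.32 CPM in fetuses (SD, n = 3 each), a log2 difference of -0.86 ± 0.27 (edgeR adjusted p = 0.0354). The call was lost with scaling by library totals alone (-0.40, adjusted p = 0.323) and without lamb library 2, lamb library 3, fetal library 1 or fetal library 3 (adjusted p = 0.0914, 0.0927, 0.126 and 0.0691), within a range of 0.0179 to 0.323 over all alternatives. The authors' deposited table gives a corrected p of 0.0633 for PRKG1.

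The 2 deposited scales disagreed on the direction of PRKG1. By the authors' RPKM means PRKG1 was at 13.5 in lambs and 12.1 in fetuses, a log2 ratio of 0.16, against -0.40 from the counts with library totals alone, the like scaling. If RPKM and counts rested on the same reads, RPKM divided by CPM from the library total would be constant for a gene. For NPR1 that quotient was 0.245, 0.264 and 0.256 in lambs and 0.267 in fetal library 1, and for NPR2 and GUCY1B3 it also stayed within 1.10-fold. For PRKG1 it was 2.62, 2.75 and 2.90 in lambs and 1.58 in fetal library 1, so the 2 scales did not rest on the same reads in the same proportion. NPR3 also differed, at 0.930, 0.916 and 0.762 in lambs and 0.618 in fetal library 1, and its log2 ratio of RPKM means was -4.07. For GUCY1A3 the quotient was 0.584 in lamb library 2, against 0.348 and 0.358 in lamb libraries 1 and 3 and 0.381 in fetal library 1.

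**Figure D4:**
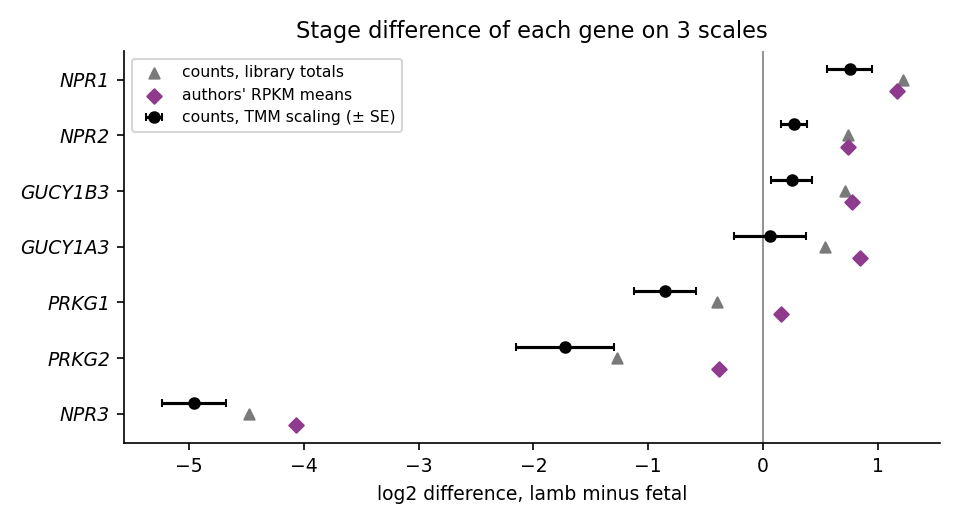
Log2 difference, lamb minus fetal, of the 7 tested genes from counts with TMM scaling (circles, ± SE), from counts with library totals alone (triangles) and from the authors' RPKM means (diamonds). NPR3 was lower and NPR1 higher in lambs on all 3 scales, whereas PRKG1 was at -0.86 and -0.40 by counts and at 0.16 by RPKM means.

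PRKG2, the membrane-bound cGMP-dependent kinase known from bone growth and the intestine (ENSOARG00000019073, chromosome 6, 95499788 to 95607143), was the gene with the fewest counts of those tested. It had 28, 8 and 19 counts in the lamb libraries and 45, 38 and 61 in the fetal libraries, or 1.38, 0.415 and 0.950 CPM in lambs and 2.69, 2.80 and 3.64 CPM in fetuses. The lamb values were all below the fetal values. The log2 difference was -1.72 ± 0.43, a 3.30-fold lower level in lambs (edgeR adjusted p = 0.0136), and PRKG2 passed in each alternative in which it was tested (adjusted p between 0.00134 and 0.0481). By the authors' RPKM means it was at 1.41 in lambs and 1.84 in fetuses, a log2 ratio of -0.39 against -1.27 from the counts with library totals alone, and its quotient of RPKM to CPM ranged over 3.87-fold. The ratio of PRKG1 to PRKG2 counts was 3.68, 9.25 and 3.79 in lambs and 3.73, 1.95 and 1.97 in fetuses (two-sided exact permutation test on log2 ratios, p = 0.2).

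The genes whose profile over the 6 libraries was nearest to that of NPR3 were PON3, F10, CAPN11, PPARGC1B and KCNAB3. Nearness was the root mean square distance between centred log2 CPM profiles, over 9438 genes with a symbol and an average of 5 CPM or more in one stage, and these 5 had distances of 0.25, 0.31, 0.31, 0.35 and 0.35. With 2 stages such a list holds genes with a stage difference of the same size, and it is a description of these libraries. PPARGC1B, a coactivator of mitochondrial genes, had 3.46, 2.70 and 4.45 CPM in lambs and 70.7, 83.0 and 85.3 CPM in fetuses. KCNAB3, a subunit of potassium channels, had 0.791, 0.675 and 0.850 CPM in lambs and 23.7, 34.9 and 29.7 CPM in fetuses. PON3, a paraoxonase, had 4, 1 and 6 counts in lambs and 146, 82 and 82 in fetuses, but the authors' RPKM means for it were 2.56 in lambs and 2.30 in fetuses, so the direction of PON3 differs between the deposited scales. F10, the gene of coagulation factor X, and CAPN11, a calpain protease, had at most 5 counts in any lamb library and at least 102 in any fetal library. The log2 CPM behind the distances included a prior count of 2. With so few lamb counts, the nearness of PON3, F10 and CAPN11 to NPR3 depends in part on that prior.

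Other genes of the pathway were taken from 8 lists of peptide processing, other cyclases, nitric oxide synthesis, phosphodiesterases, cGMP export, kinase substrates, inhibitory G proteins and lipolysis. Of 57 genes listed, 53 were found and 37 were tested; 12 were higher, 6 lower and 19 did not pass. That is 48.6% called, against 44.7% of all genes tested, with a median log2 difference of 0.18 against -0.01 for all genes. With scaling by library totals alone, 20 were higher and 2 lower. Under that scaling 7057 of all 13624 genes tested were called, and 79.3% of those were higher in lambs. Single lists held 1 to 12 tested genes, and no list was tested as a set.

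**Figure D5:**
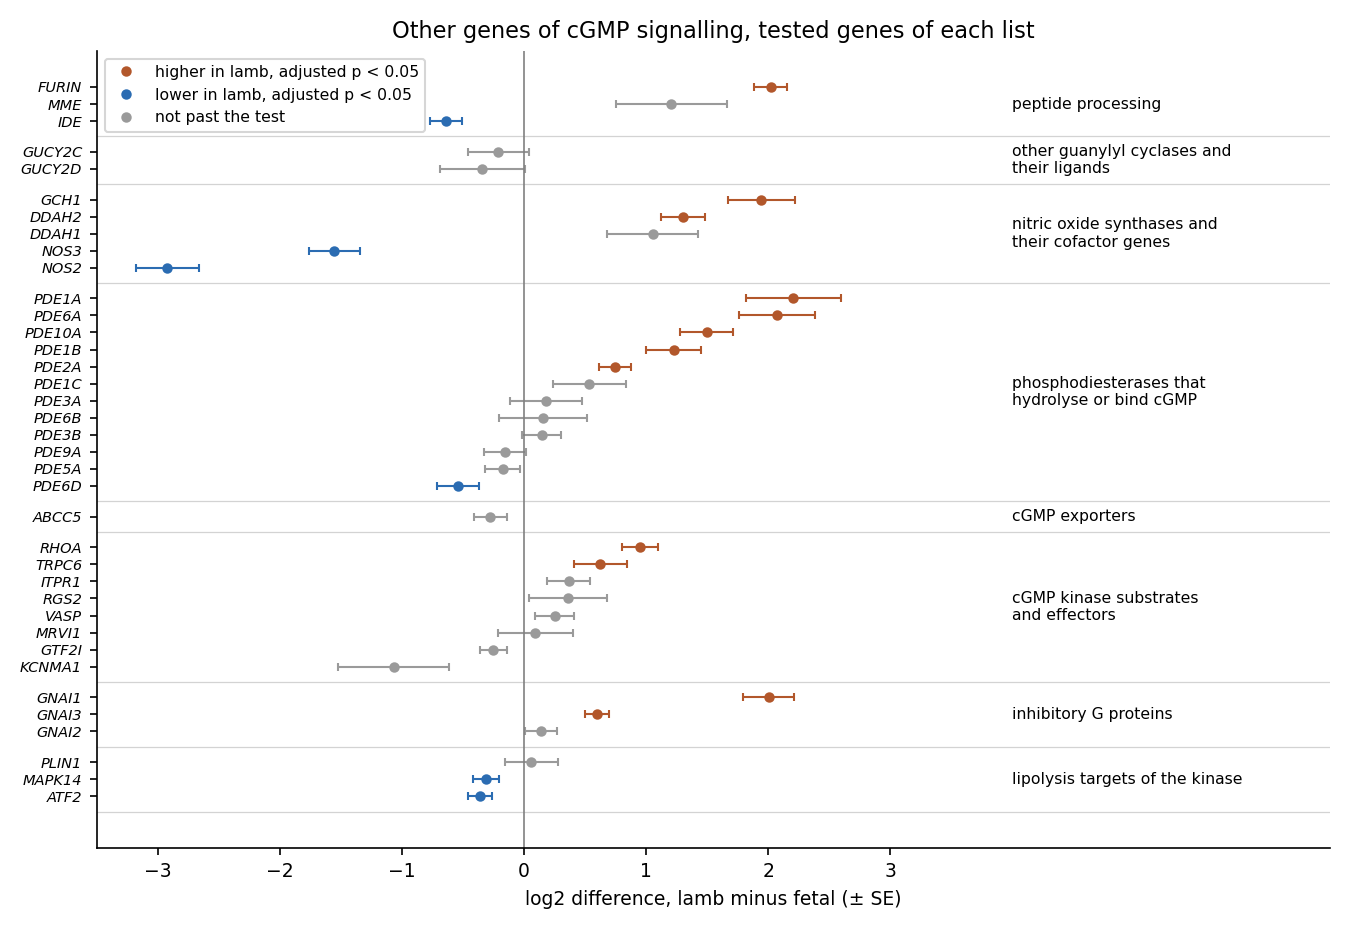
Log2 difference, lamb minus fetal, ± SE from edgeR with TMM scaling for the 37 tested genes of the 8 lists, coloured by whether they passed (adjusted p below 0.05). NOS2 and NOS3 lay lowest, at -2.92 and -1.55, and PDE1A, PDE6A, FURIN and GNAI1 were above 2. In the list named for lipolysis targets, the kinase gene MAPK14 and the transcription factor gene ATF2 were called lower, and PLIN1 did not pass. MAPK14 and ATF2 were above 0 with library totals alone.

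Of 5 genes tested from the list of nitric oxide synthases and their cofactor genes, GCH1 and DDAH2 were higher in lambs, NOS2 and NOS3 were lower and DDAH1 did not pass. The share called was 80% of these 5 genes, against 44.7% of all genes tested. NOS3, the endothelial nitric oxide synthase, had 94.0, 162 and 138 CPM in the lamb libraries and 355, 429.8 and 373 CPM in the fetal libraries, a log2 difference of -1.55 ± 0.21 (edgeR adjusted p = 9.96e-04). All lamb values were far below the fetal ones. Of the 6 endothelial markers, TIE1 (-1.20 ± 0.19, edgeR adjusted p = 0.00202) and CDH5 (-0.63 ± 0.19, adjusted p = 0.0271) were also lower in lambs, TEK was higher (0.65 ± 0.22, adjusted p = 0.0426), and VWF, KDR and EMCN did not pass. Their part in the NOS3 value was not tested. NOS2, the inducible synthase, had 2.72, 3.48 and 2.70 CPM in lambs and 15.8, 22.4 and 29.3 CPM in fetuses, a log2 difference of -2.92 ± 0.26 (edgeR adjusted p = 1.66e-04). GCH1, which makes the cofactor tetrahydrobiopterin of these synthases, averaged 7.56 ± 1.84 CPM in lambs and 1.95 ± 0.392 CPM in fetuses (SD, n = 3 each) and rose by 1.94 ± 0.27 (adjusted p = 0.00114). DDAH2, which belongs to a family that removes inhibitors of these synthases, rose by 1.30 ± 0.18. NOS1 did not pass the low-count filter, with 1, 13 and 2 counts in the lamb libraries and 69, 3 and 5 in the fetal libraries, so the stages overlapped.

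Phosphodiesterases break cGMP down or are regulated by it. Of 12 genes tested from their list, 5 were higher in lambs, 1 was lower and 6 did not pass, with a median log2 difference of 0.36. The share called was 50%, against 44.7% of all genes tested. The gene called lower was PDE6D, which is listed with the PDE6 genes but is not itself an enzyme that breaks cGMP down. PDE1A, a calcium-dependent enzyme, had 143, 93.1 and 107 CPM in the lamb libraries and 22.6, 39.7 and 12.5 CPM in the fetal libraries, and rose by 2.20 ± 0.39 (edgeR adjusted p = 0.00320). PDE6A, known from photoreceptors, averaged 3.68 ± 0.962 CPM in lambs and 0.872 ± 0.0894 CPM in fetuses (SD, n = 3 each; log2 difference 2.07 ± 0.31), but its RPKM means were 2.33 in lambs and 1.87 in fetuses. PDE10A rose by 1.50 ± 0.22. To complete the count, PDE1B rose by 1.23 ± 0.23 and PDE2A, which cGMP stimulates, by 0.74 ± 0.13, and PDE6D fell by 0.54 ± 0.17 (edgeR adjusted p = 0.0354). With scaling by library totals alone PDE6D was at -0.081, and the authors' deposited table gives it a corrected p of 0.194. PDE5A, the cGMP-specific enzyme of smooth muscle, was chosen for naming after its values were seen: it had 28.7, 25.8 and 29.3 CPM in lambs and 34.1, 25.6 and 35.0 CPM in fetuses and did not pass (-0.18 ± 0.15, edgeR adjusted p = 0.357). PDE3B, an abundant adipocyte enzyme that cGMP inhibits, was at 479 ± 69.3 CPM in lambs and 432 ± 48.9 CPM in fetuses (SD, n = 3 each) and did not pass either (adjusted p = 0.481); it too was chosen after its values were seen.

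Genes that process or remove the peptides differed in direction. FURIN, a protease that cleaves the B-type and C-type peptide precursors, had 133, 144 and 109.6 CPM in the lamb libraries and 30.9, 31.0 and 33.2 CPM in the fetal libraries, and rose by 2.02 ± 0.14 (edgeR adjusted p = 7.36e-05). IDE, a protease that degrades insulin and also natriuretic peptides, had 22.2, 21.5 and 28.2 CPM in lambs and 37.9, 36.8 and 37.5 CPM in fetuses and fell by 0.64 ± 0.13 (adjusted p = 0.00602). With scaling by library totals alone IDE was at -0.17 and did not pass (adjusted p = 0.452). MME, which encodes neprilysin, another protease of these peptides, was at 80.4 ± 27.6 CPM in lambs and 34.7 ± 20.9 CPM in fetuses (SD, n = 3 each). All lamb values were above all fetal values, but the log2 difference of 1.21 ± 0.46 did not pass (edgeR adjusted p = 0.0641). The authors' deposited table gives a corrected p of 0.0101 for MME. CORIN, which cleaves the atrial peptide precursor in the heart, did not pass the low-count filter, and OSTN, whose product osteocrin binds NPR3, had 0 counts throughout. The authors' RPKM means for OSTN were above 0, at 0.338 in lambs and 0.499 in fetuses.

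Of the other cyclases 2 were tested and 0 passed in edgeR, with adjusted p = 0.520 and 0.458 and 0 at an unadjusted p below 0.05, and the authors' deposited table gives corrected p of 1 and 0.954. GUCY2C, the intestinal guanylin receptor, was at 5.89 ± 1.27 CPM in lambs and 6.81 ± 1.75 CPM in fetuses, and GUCY2D at 0.670 ± 0.131 CPM in lambs and 0.852 ± 0.123 CPM in fetuses (SD, n = 3 each). Of 8 kinase substrates and effectors tested, 2 were higher, 0 lower and 6 did not pass, which is 25% called against 44.7% of all genes tested. RHOA, a small GTPase that the kinase phosphorylates, rose by 0.95 ± 0.15 (edgeR adjusted p = 0.00173). TRPC6, a cation channel, rose by 0.63 ± 0.22 at adjusted p = 0.0495, a call lost in 9 of 14 alternatives, among them leaving out lamb library 1, lamb library 3 or any fetal library (adjusted p over all alternatives from 0.00485 to 0.132). MRVI1, which links PRKG1 to calcium release and is named after its values were seen, had 14.8, 35.2 and 17.4 CPM in the lamb libraries and 22.0, 22.1 and 19.0 CPM in the fetal libraries and was, like GUCY1A3, highest in lamb library 2. The cGMP exporter ABCC5 did not pass (adjusted p = 0.140).

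Of the 3 inhibitory G protein genes, to which NPR3 can couple, 2 were higher and 1 did not pass, against 44.7% called of all genes tested. GNAI1 had 48.2, 29.0 and 36.9 CPM in the lamb libraries and 9.51, 8.09 and 10.8 CPM in the fetal libraries and rose by 2.00 ± 0.21 (edgeR adjusted p = 3.48e-04), and GNAI3 rose by 0.60 ± 0.10 (adjusted p = 0.00246). Of the lipolysis and kinase targets, PLIN1 was at 1382 ± 291 CPM in lambs and 1324 ± 243 CPM in fetuses (SD, n = 3 each; adjusted p = 0.835). ATF2, a transcription factor, and MAPK14, a stress-activated kinase upstream of it, fell by 0.36 ± 0.10 and 0.31 ± 0.10 (adjusted p = 0.0191 and 0.0442). Both directions were turned with scaling by library totals alone, at 0.11 and 0.17. The ATF2 call was lost without fetal library 1, 2 or 3 (adjusted p = 0.0620, 0.0643 and 0.0746). It was also lost with the replicate block (adjusted p = 0.0517) and with library totals alone (adjusted p = 0.598). The MAPK14 call was lost in 10 of 14 alternatives, among them leaving out lamb library 1, lamb library 2 or any fetal library. Over all alternatives the adjusted p ranged from 0.0105 to 0.598 for ATF2 and from 0.0181 to 0.411 for MAPK14.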

How the data were processed

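Per the series text, reads were mapped by the authors in CLC Genomics Workbench v7.0 to the gene models of Ensembl release 74 (Oar v3.1); per the labels, libraries were made with a TruSeq RNA kit and run together on 1 flowcell. The sources used here do not give read filters, the use of strand or the treatment of reads with several placements. The authors deposited whole-number read counts per gene and library, RPKM values, a signed linear fold score and p-values of their own edgeR test. The RPKM values, per the file headers, serve here for levels per length only; 2 per-library RPKM columns carry one name and were not used. In 784 genes RPKM was above 0 at 0 counts.

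In edgeR 4.0.16 (R 4.3.3), filterByExpr kept 13624 genes of the deposited counts, TMM scaled the libraries, and the quasi-likelihood test compared lambs with fetuses with no covariate and Benjamini-Hochberg adjustment over all genes. The SE is the log2 difference divided by the root of F. Alternatives were other size factors, other filters, DESeq2 1.42.0, limma-voom (limma 3.58.1), a replicate block and leaving out each library. The edgeR code was also run on simulated counts in which few genes were changed, as many up as down, at a single dispersion. That setting differs from these data and does not bear on the choice of scaling. No gene lengths are given in the table used, so ratios are of counts, not per kilobase as planned. The labels say that animals were separate. Genes were named by a rule: every gene of the group, up to 3 called genes with the largest change per pathway list at 1 CPM or more, and the 5 profiles nearest to NPR3. Members, lists and rule were chosen with earlier results of these data known.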

Additional observations from a re-analysis of the deposited data

Results flagged for a closer look

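GUCY1A2, which encodes a further alpha subunit of soluble guanylyl cyclase, had 0 counts in all 6 libraries but RPKM values above 0, which are not used in the comparisons of counts. The authors' deposited RPKM means were 6.82 in lambs and 4.82 in fetuses. The reads behind these RPKM values are not among the counts, and which reads they are was not tested.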

How the results depend on the processing

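Over 14 alternatives the count of genes called was 4798 to 7057, against 6095. Among the 6 genes tested besides NPR3 the number called was 1 to 3 on leaving out 1 library, against 3 in the full data, and 1 without fetal library 1, where NPR1 and PRKG1 were lost. With scaling by library totals alone 3 of these 6 were higher and 1 lower, against 1 higher and 2 lower with TMM, the median log2 difference of all genes moved up by 0.47, 79.3% of the genes called were higher in lambs against 49.3% with TMM, and NPR3 was at -4.48; ATF2 was then at 0.11 and MAPK14 at 0.17. GUCY1A3 was at -0.051 with limma-voom, at -0.048 with the replicate block and between -0.42 (without lamb library 2) and 0.30 on leaving out 1 library, and it did not pass in any of the 14. The difference in the log2 ratio of GUCY1A3 to GUCY1B3 lay between -0.76 and 0.17 on leaving out 1 library. The causes of these changes were not tested. Of the 20 tested genes named by the rule besides NPR3, 11 kept their direction and their side of the threshold under every alternative that gave a value; PRKG2 and PDE6A gave none with a filter of 5 CPM in 3 libraries. The number pairs no animals: deviations of same-numbered lamb and fetal libraries correlated at 0.00327, -0.116 and 0.046, and 1 of 6 libraries correlated best with its own number. With the replicate block 5353 genes were called. Division by gene length was not run, for want of lengths. Depth limits PRKG2, with 8 to 28 counts in lambs.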

Other observations

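TARS, a transfer RNA synthetase, lies 566400 bases before NPR3 on Oar v3.1 and SUB1, a transcriptional coactivator, 73368 bases after it, and both were higher in lambs, where NPR3 was lower. TARS averaged 221 ± 44.3 CPM in lambs and 116 ± 0.717 CPM in fetuses (SD, n = 3 each; log2 difference 0.93 ± 0.16, edgeR adjusted p = 0.00268), and SUB1 averaged 159 ± 10.7 CPM in lambs and 117 ± 11.4 CPM in fetuses (log2 difference 0.44 ± 0.13, adjusted p = 0.0239). Beside NPR2, the mitochondrial hydrolase gene HINT2 averaged 15.4 ± 4.39 CPM in lambs and 95.0 ± 33.3 CPM in fetuses (SD, n = 3 each; log2 difference -2.62 ± 0.30, edgeR adjusted p = 4.91e-04), and it ends 452 bases from the start of NPR2. TMEM8B and SPAG8, which overlap NPR2, were lower in lambs as well, at -0.68 ± 0.13 and -1.65 ± 0.41. MSMP, the gene after NPR2, did not pass (adjusted p = 0.222), nor did ILF2 and INTS3 beside NPR1 (adjusted p = 0.499 and 0.184). These genes were chosen by position, after the values of the receptors were known.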
